A study of Mus musculus with 16 samples.

Results

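Idi1, Hmgcs1 and Cyp51 are enzymes of the route by which a cell makes isoprenoids and cholesterol, and their transcripts were followed in kidneys of mice lacking Slc15a2. They were selected on their log2 ratios of knockout over wild-type pool on all 16 arrays, and all are targets of the transcription factor SREBP2; every probe that names one of them alone was taken. They are 3 of 9669 genes that have a probe naming them alone, and they have 4 such probes of 20205 on the array: 1 for Idi1, 1 for Hmgcs1 and 2 for Cyp51. A further probe that names Cyp51 together with another gene was left out. Since the ratios of knockout over pool chose the genes, these ratios are given as a description, without a test.

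The tested kidneys were the right kidneys of 4 male Pept2-/- mice (K1 to K4, here mouse 1 to mouse 4), aged 88 (±2) days, on a mixed background of C57BL/6 and 129Sv. They were set against 1 pool of RNA from the right kidneys of 5 wild-type mice (W1 to W5). The parents of all experimental animals came from a Pept2+/- line, and the mice were killed in the morning. Pept2 is another name of Slc15a2, the proton-coupled carrier that returns small peptides from the filtrate to the proximal tubule cell. Each knockout mouse was set against the pool on 4 two-colour arrays, 2 for each placing of the knockout RNA (channel 1 or channel 2). Wild-type kidneys were never measured singly, so their spread is unknown, and all 16 ratios carry whatever is peculiar to that 1 pool.

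Cholesterol synthesis starts in the cytosol, where Hmgcs1 joins acetyl units on the way to mevalonate. Mevalonate becomes isopentenyl diphosphate, and Idi1 isomerises that to its reactive partner dimethylallyl diphosphate, so that longer isoprenoids can be built for protein prenylation, ubiquinone, dolichol and squalene. Squalene is cyclised to lanosterol, from which Cyp51 removes a methyl group on the way to cholesterol. When sterols in the endoplasmic reticulum are scarce, SREBP2 is cut free from the membrane, enters the nucleus and binds sterol regulatory elements next to sites for NF-Y and Sp1 in the promoters of these enzymes. The kidney makes part of its own cholesterol and also takes it up from lipoproteins.

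The promoters are shown because SREBP2 acts through them. Each window runs from 250 bases before to 50 bases after the start of the gene, is read 5′ to 3′ on the strand of the gene and comes from RefSeq on GRCm38.p6. The windows are chr13:8885356-8885655 (plus strand) for Idi1, chr13:119690101-119690400 (plus strand) for Hmgcs1 and chr5:4104648-4104947 (minus strand) for Cyp51. Capitals mark matches to TCACNCCAC, to ATCACCTCAG and to ATTGG or its reverse complement CCAAT.
Idi1: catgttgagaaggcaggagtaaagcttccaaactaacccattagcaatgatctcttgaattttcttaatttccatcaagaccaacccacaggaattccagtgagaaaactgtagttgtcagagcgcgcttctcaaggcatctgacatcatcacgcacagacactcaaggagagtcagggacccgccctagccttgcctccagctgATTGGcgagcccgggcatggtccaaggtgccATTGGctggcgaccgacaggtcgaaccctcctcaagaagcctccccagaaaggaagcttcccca
Hmgcs1: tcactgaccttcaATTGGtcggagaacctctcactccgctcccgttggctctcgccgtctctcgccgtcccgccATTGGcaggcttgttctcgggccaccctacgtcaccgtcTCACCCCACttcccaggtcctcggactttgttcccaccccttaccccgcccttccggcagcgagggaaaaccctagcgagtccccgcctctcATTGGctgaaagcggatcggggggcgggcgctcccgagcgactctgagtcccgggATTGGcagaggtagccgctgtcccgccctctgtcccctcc
Cyp51: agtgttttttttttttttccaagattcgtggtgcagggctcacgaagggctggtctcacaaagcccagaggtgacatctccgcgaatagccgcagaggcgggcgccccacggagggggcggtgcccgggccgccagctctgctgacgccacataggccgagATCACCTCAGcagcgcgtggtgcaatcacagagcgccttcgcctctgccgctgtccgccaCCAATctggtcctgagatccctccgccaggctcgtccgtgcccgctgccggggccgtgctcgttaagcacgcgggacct

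The motifs were searched on both strands. TCACNCCAC, a form of the sterol regulatory element, began 137 bases before the start of Hmgcs1 and was in 1.24% of all 32851 promoter windows. A longer form of this element, without the free base, was in none of the 3 windows, in 0 of 18 sterol route genes with a window and in 0.0913% of all windows. The 10 bases ATCACCTCAG, taken from the window of Cyp51 after it had been read, where they begin 89 bases before the start, were in 0.0487% of all windows. Neither sequence was in the window of Idi1. ATTGG, the inverted CCAAT box bound by NF-Y, occurred 2 times in the window of Idi1, 4 times in that of Hmgcs1 and 1 time in that of Cyp51, and was in 37.4% of all windows. The Sp1 motif GGGCGG occurred 1, 3 and 1 times in the windows of Idi1, Hmgcs1 and Cyp51 and was in 35.7% of all windows. The E box CACGTG was in none of the 3, and in 7.15% of all windows. Of the 18 sterol route genes, 16 held ATTGG, 15 held GGGCGG, 3 held CACGTG and Hmgcs1 alone held TCACNCCAC. Counted by window, as the shares of all windows are, 16 of their 21 windows held ATTGG, 16 held GGGCGG and 3 held CACGTG. These matches are letters and not measured binding sites.

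The sources do not state which channel is on top of the deposited ratio. Slc15a2, the targeted gene, was negative on all 16 arrays when the values were read as channel 1 over channel 2 and turned to knockout over pool, from -3.77 to -1.45 on the log2 scale with a mean of 17.5% of the pool. This reading is taken as the likely direction, because a targeted gene should lose transcript. Under the opposite reading every sign below would be exchanged. All values below are log2 ratios of knockout over pool after each array was centred on its median, and they hold no level of a transcript. A ratio of whole kidneys cannot tell fewer cells of a type from less RNA per cell. Between 10134 and 18400 probes carried a value on an array, and 6191 genes had a value for each mouse in each orientation and were tested. The 3 sterol genes were among them.

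Idi1 stood below the pool in every knockout mouse. Its log2 ratio in mice 1 to 4 was -0.40, -0.35, -0.76 and -0.55. The mean was -0.51 ± 0.18 (SD, n = 4 mice), or 70.2% of the pool, with rank 7 from the bottom among the 6191 genes. Under the opposite reading it would be 143% of the pool, with rank 7 from the top. Being below 0 in all 4 mice was true of 14.3% of genes tested. Over the 16 arrays the ratio of Idi1 ran from -0.87 to 0.19 with a median of -0.52, and 15 arrays were negative. The positive one was array 1 of mouse 2, whose other arrays lay at -0.48, -0.37 and -0.72. Without that array, an alternative chosen after its value was seen, the mean of the 4 mice was -0.55. Mouse 3 had the lowest value, yet its arrays, from -0.87 to -0.51, overlapped those of each other mouse. These ran from -0.59 to -0.29 in mouse 1, from -0.72 to 0.19 in mouse 2 and from -0.62 to -0.44 in mouse 4.

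Hmgcs1 also had a negative ratio in each knockout mouse, at a smaller size. The values in mice 1 to 4 were -0.23, -0.05, -0.31 and -0.27. They averaged -0.21 ± 0.11 (SD, n = 4 mice), or 86.2% of the pool (116% under the opposite reading). Of the 15 arrays with a value, 12 were negative, and the range was from -0.55 to 0.07 with a median of -0.23. Mouse 2, nearest to the pool, rested on 3 arrays at 0.04, -0.12 and 0.01, since array 1 was blank. Its negative sign came from the array at -0.12 alone, its only array with knockout RNA in channel 2. Over all mice, 5 of 8 arrays with knockout RNA in channel 1 were negative, and 7 of 7 with it in channel 2. Mouse 3 held both the lowest and the highest array, and so overlapped each of the other mice. Mouse 1 ran from -0.34 to -0.08 and mouse 4 from -0.35 to -0.15, and mice 2 and 4 did not overlap.

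Cyp51 divided the mice. Its ratio was 0.19 in mouse 1 and 0.05 in mouse 2, but -0.55 in mouse 3 and -0.32 in mouse 4, which are 114%, 103%, 68.3% and 79.9% of the pool. Under the opposite reading these shares would be 87.6%, 96.9%, 146% and 125%. The mean of -0.16 ± 0.34 (SD, n = 4 mice) therefore describes none of the animals, and without mouse 3 it was -0.03. By array, mouse 1 ran from -0.20 to 0.34, mouse 2 from -0.03 to 0.14, mouse 3 from -0.74 to -0.45 and mouse 4 from -0.56 to -0.13. No array of mouse 3 reached any array of mice 1 and 2, and mouse 4 overlapped mouse 1 through array 2 of mouse 1 alone, where 1 of the 2 Cyp51 probes was blank. In the order of the levels, mice 3 and 4 overlapped, mice 2 and 1 overlapped, and mice 4 and 2 did not. The plot by array shows these positions.

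**Figure D1:**
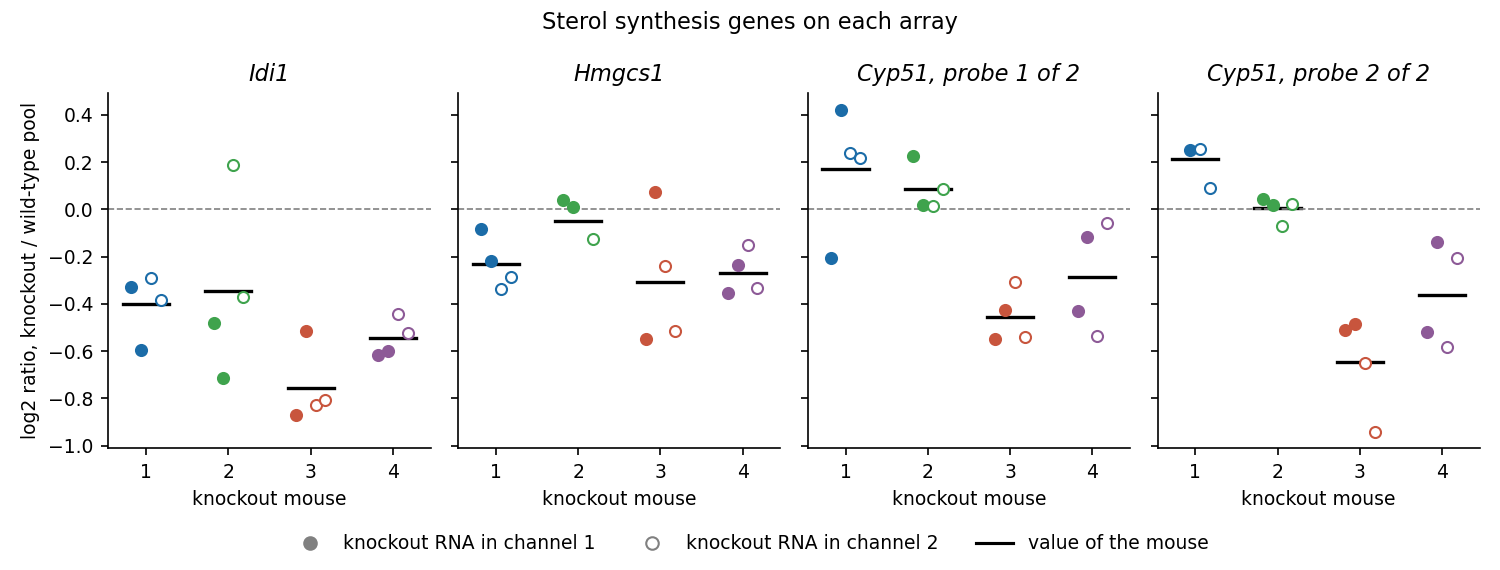
Log2 ratio of knockout over wild-type pool on each array (y axis) for each knockout mouse (x axis), for the probes of Idi1, Hmgcs1 and Cyp51. Filled points have knockout RNA in channel 1 and open points in channel 2, bars are the value of the mouse (the mean of its orientation means), and the dashed line is the pool. Idi1 lies below the line on 15 of 16 arrays, while both Cyp51 probes lie below it on every array of mice 3 and 4.

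The 2 probes of Cyp51 gave the same split. The first stood at 0.17, 0.09, -0.46 and -0.29 in mice 1 to 4, and the second at 0.21, 0.00, -0.65 and -0.36. On the 15 arrays where both had a value they had the same sign on 14, and their Pearson r was 0.94 across these arrays, which share the hybridised RNA. They differed by 0.12 on average and by at most 0.40, on array 3 of mouse 3.

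**Figure D2:**
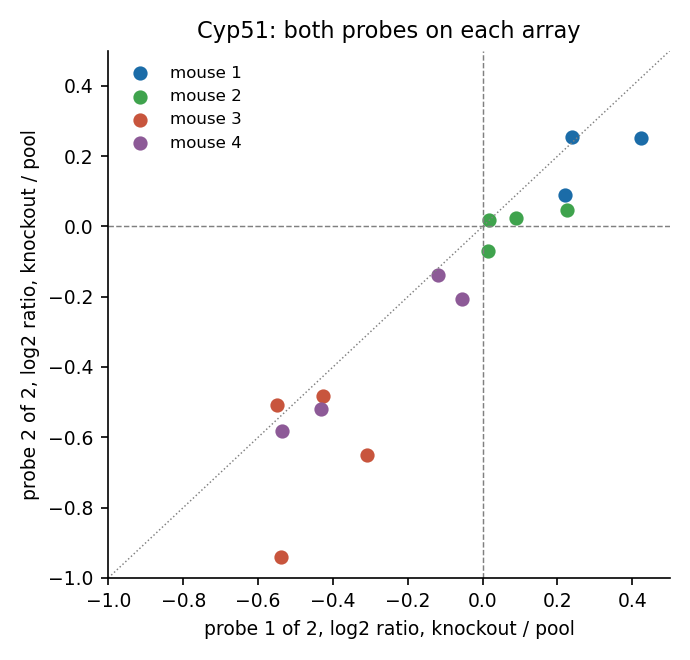
Log2 ratio of knockout over pool for both probes of Cyp51 on the 15 arrays where both had a value, 1 point per array and coloured by mouse, with the dotted line marking equality. Points of mice 3 and 4 lie in the lower left, and those of mice 1 and 2 lie near 0 or to the upper right.

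The difference of the knockout mice from each other is another contrast of the same arrays, in which the shared pool cancels. The array values were known when the genes were chosen, so that the tests of this and the dye contrast describe these arrays and are no independent evidence on the 3 genes. Cyp51 differed between mice in limma's moderated F test with a dye term (F = 12.6, adjusted p = 0.011 over all 6191 genes, range of the mice 0.74). The test passed for 2.6% of genes. Each Cyp51 probe passed in a probe-level F test added after the data were seen, with adjusted p of 0.031 and 0.00213. In that fit 2.33% of 10804 probes passed, and the 2 Cyp51 probes read the same hybridised RNA. The call held without mouse 4 (adjusted p = 0.0112) and was lost without mouse 1 (0.0604), mouse 2 (0.0612) or mouse 3 (0.302). It was also lost on arrays 1 and 2 alone (0.246) and on arrays 3 and 4 alone (0.0757). Idi1 (F = 3.45, adjusted p = 0.326, range 0.41) and Hmgcs1 (F = 1.53, adjusted p = 0.651, range 0.26) did not pass. The F test takes arrays as technical replicates, so it compares these 4 animals and says nothing of genotype.

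All 3 genes had their lowest value in mouse 3 and the next lowest in mouse 4, but of the 3 only Cyp51 passed the F test. The share of all genes with this order was not counted, so the shared order is a description. Single markers of other cells also differed between mice, in orders that varied. Of 8 seminal vesicle genes listed, 2 were tested: Svs5, a secretory protein of that gland, stood at 0.21, -0.09, 4.94 and 1.09 in mice 1 to 4 (F test, adjusted p = 6.35e-06), and Spink1 at -0.43, -0.16, -0.05 and -0.17 (adjusted p = 0.544). Foxi1, the transcription factor of intercalated cells, had the split of Cyp51, with 0.41, 0.29, -0.40 and -0.21 (adjusted p = 0.000741), and was the 1 collecting duct marker of 4 tested that differed between mice. The other collecting duct markers tested did not have this split. Aqp2 stood at 0.13, 0.21, 0.28 and 0.46, and Hsd11b2 at 0.26, -0.10, 0.25 and 0.32. Slc4a1 stood at 0.09, 0.10, 0.01 and -0.06 (F test, adjusted p = 0.954). Fabp4, 1 of 3 adipose markers tested, differed in another order, at -0.11, 0.34, 0.02 and -0.47 (adjusted p = 0.0106). No proximal tubule, adrenal cortex or leukocyte marker differed between mice, of 6, 4 and 6 tested. The F test passed for 2.6% of all genes, so the lack of a call among so few markers says little about these cell types. The part of these cell types in the Cyp51 difference was not tested.

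Dye orientation was compared within each mouse. Idi1 averaged -0.59 with knockout RNA in channel 1 and -0.43 with it in channel 2 (difference -0.16 ± 0.26, SD, n = 4 mice). Hmgcs1 averaged -0.16 and -0.26 in the same order (difference 0.10 ± 0.10), and Cyp51 -0.13 and -0.19 (difference 0.05 ± 0.06). None of the 3 passed in limma, with adjusted p of 0.435, 0.486 and 0.709. In this test 0% of the 6191 genes passed, although 1208 were at an unadjusted p under 0.05. By array number, Idi1 averaged -0.46 on arrays 1 and 2 and -0.56 on arrays 3 and 4.

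The rest of the sterol route was read from 2 lists with 23 genes, of which 14 had a probe naming them alone and 10 were tested, the 3 chosen genes among them. Of the other 7, none passed the limma test of knockout against pool in either direction (adjusted p under 0.05), where 0.145% of all genes were lower and 0.0646% higher. None of the 7 passed limma's F test between mice. At an unadjusted p under 0.05, 2 of the 7 were lower than the pool (Lbr and Pmvk), none was higher and 1 (Mvd) differed between mice. Over all genes at that threshold, 10% were lower, 6.8% higher and 13.7% differed between mice. Ratios of the 7 were negative in 3, with a median of 0.02. Over all genes tested 51.8% were negative, with a median of 0.00.

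In the mevalonate arm, Pmvk, the kinase that follows mevalonate kinase, stood at -0.26, 0.00, -0.28 and -0.38 in mice 1 to 4 (mean -0.23 ± 0.16, SD, adjusted p = 0.173). Mvk, the mevalonate kinase, stood close to the pool in each mouse, from 0.00 to 0.09 (mean 0.05 ± 0.04, adjusted p = 0.604). Mvd, the decarboxylase that makes isopentenyl diphosphate, averaged 0.23 ± 0.61 (adjusted p = 0.529). That average rested on mouse 3 at 1.15, and the highest array was at 2.22, while mice 1, 2 and 4 lay between -0.16 and -0.01. Fdps, which joins the units that Idi1 supplies, had values on 12 arrays, from -0.47 to 0.41, and was not tested, since it lacked a value for each mouse in each orientation.

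After squalene, Lbr, a sterol reductase of the nuclear envelope, stood at -0.15, -0.17, -0.23 and -0.24 in mice 1 to 4, with all 16 arrays negative, from -0.36 to -0.02 (mean -0.20 ± 0.04, adjusted p = 0.145). Its partner in the same reduction, Tm7sf2, stood at -0.19, 0.14, 0.24 and 0.04 (adjusted p = 0.687). Ebp, a sterol isomerase, stood at 0.11, 0.01, -0.11 and -0.13 (adjusted p = 0.786), and Dhcr7, the last reductase before cholesterol, at -0.17, 0.02, 0.23 and -0.01 (adjusted p = 0.915). Squalene synthase Fdft1 had values on 6 arrays and Sc5d on 3, and the probe of Msmo1, a sterol methyl oxidase, had no value on any array. The plot of the sterol route places these genes beside the 3 chosen ones.

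**Figure D3:**
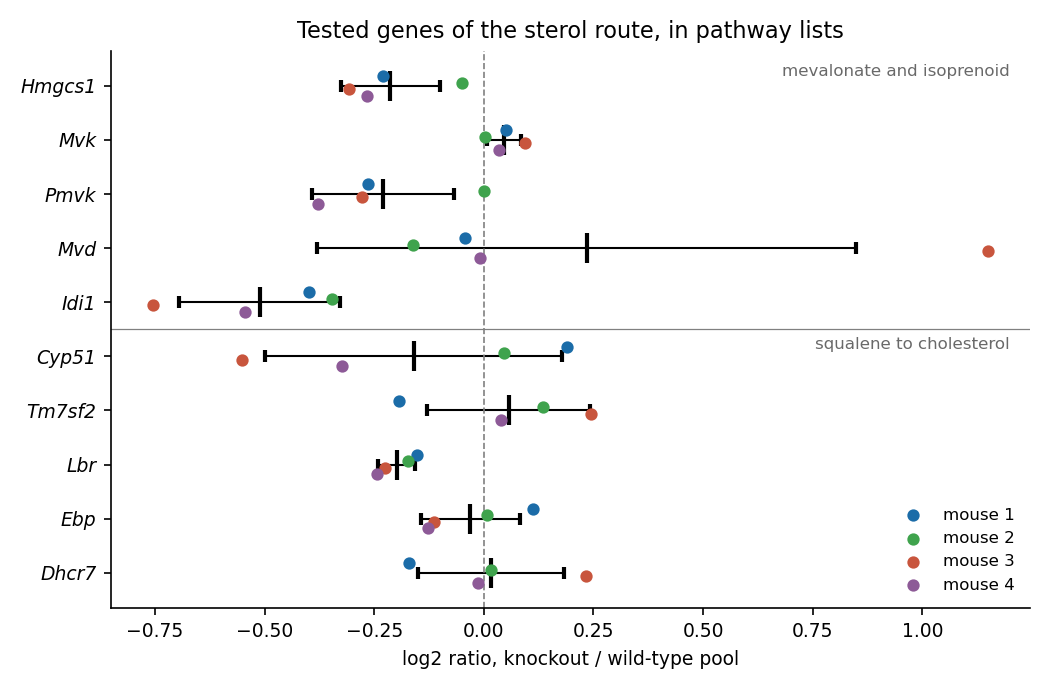
Log2 ratio of knockout over wild-type pool (x axis) for the 10 tested genes of the sterol route, mevalonate and isoprenoid genes above and squalene to cholesterol genes below. Points are the 4 knockout mice, vertical marks their mean and horizontal bars the SD. Idi1 lies furthest below 0, Cyp51 reaches both sides of it, and Mvd is spread by mouse 3 at 1.15.

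Around the route, 31 genes of 5 further lists were tested in limma and none passed in either direction or between mice. At an unadjusted p under 0.05, 2 of the 31 were lower, 7 were higher and 5 differed between mice. Over all genes 10% were lower, 6.8% higher and 13.7% differed between mice. The count of higher genes lay above its share, that of lower genes below it, and that between mice near it. Of 5 genes that steer SREBP or bring cholesterol into the cell, 2 were negative. Srebf2, which encodes SREBP2 itself, stood at 0.03, 0.07, 0.21 and 0.03 in mice 1 to 4 (mean 0.08 ± 0.09, adjusted p = 0.41), Mbtps1, the protease that makes the first cut in SREBP, at -0.06 ± 0.16 (adjusted p = 0.666), the lysosomal lipase Lipa at -0.08 ± 0.09 (adjusted p = 0.42) and the lipoprotein receptor Scarb1 at 0.01 ± 0.07 (adjusted p = 0.955). Sqle and Insig1, which are further SREBP2 targets, had no probe naming them alone.

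Fatty acid synthesis, the branch that SREBP1 governs, had 3 negative genes of 11, against 51.8% of all genes tested, and a median of 0.04. Lpin1, a phosphatidate phosphatase, averaged 0.14 ± 0.06 (adjusted p = 0.208), Acly, which supplies cytosolic acetyl-CoA, 0.10 ± 0.05 (adjusted p = 0.29), Elovl6 0.11 ± 0.13 (adjusted p = 0.36) and Fads2 0.09 ± 0.08 (adjusted p = 0.371). Acly also supplies the starting material of Hmgcs1, and their averages lay on opposite sides of the pool. Acly did not pass, and the difference between these genes was not tested.

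Among 4 genes of sterol export and breakdown, Cyp7b1, an oxysterol hydroxylase, stood at -0.25, -0.19, -0.41 and -0.44 in mice 1 to 4, with all 16 arrays from -0.56 to -0.07 (mean -0.32 ± 0.12, adjusted p = 0.0983). Apoe, the apolipoprotein, stood at 0.05, 0.47, 0.46 and 0.25 (mean 0.31 ± 0.20, adjusted p = 0.148). Cyp27a1, a mitochondrial sterol hydroxylase, averaged 0.11 ± 0.06 (adjusted p = 0.277), and the oxysterol receptor gene Nr1h3 -0.02 ± 0.11 (adjusted p = 0.873).

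Of 8 genes that use isoprenoids, 2 were negative. Fnta, a subunit of the enzymes that attach farnesyl and geranylgeranyl groups, averaged -0.15 ± 0.06 (adjusted p = 0.185) and Rce1, which trims prenylated proteins, 0.13 ± 0.08 (adjusted p = 0.256). Nus1, a subunit of the dolichol-making transferase, had signs like those of Cyp51, at 0.07, 0.09, -0.33 and -0.23, but passed neither test (adjusted p = 0.508 against the pool and 0.126 between mice). Pdss2, which makes the ubiquinone side chain, averaged 0.05 ± 0.08 (adjusted p = 0.623). Of the ketone body genes and thiolases, Bdh1, which interconverts the ketone bodies, averaged 0.23 ± 0.11, the peroxisomal thiolase Acaa1a 0.23 ± 0.12 (adjusted p = 0.148 each), and Oxct1, which activates acetoacetate, -0.08 ± 0.11 (adjusted p = 0.469). Slc22a8, a basolateral anion carrier, was the 1 proximal tubule marker of 6 past the threshold, higher at 0.48 ± 0.11 (adjusted p = 0.0149). Over all genes 0.0646% were higher at this threshold. The means of the other proximal tubule markers tested ran from -0.02 to 0.21, so the call concerns this gene.

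The genes most like each sterol gene over the arrays were found by Pearson r, over at least 12 arrays with values for both. Arrays share the pool, the mouse and the orientation, so r is a description. Cyp51 was followed most closely by Dynlt3, a dynein light chain (r = 0.95, 16 arrays), Wfdc15b, a secreted protein with a protease inhibitor fold (0.94, 16 arrays), Tm9sf2 (0.90, 12 arrays), the fatty acid hydroxylase Cyp4a14 (0.90, 12 arrays) and Nop58, a nucleolar ribonucleoprotein (0.89, 16 arrays). After the mean of each mouse was taken out, r with Cyp51 was 0.88 for Dynlt3, 0.90 for Wfdc15b and 0.74 for Nop58, but 0.39 for Tm9sf2 and 0.10 for Cyp4a14. Wfdc15b stood at -0.22, -0.09, -0.86 and -0.73 in mice 1 to 4 and differed between mice (adjusted p = 0.0126), and so did Tm9sf2 at 0.43, 0.13, -0.42 and -0.26 (adjusted p = 0.011) and Cyp4a14 (adjusted p = 6.2e-06). Dynlt3 (adjusted p = 0.165) and Nop58 (adjusted p = 0.153) did not pass this F test.

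**Figure D4:**
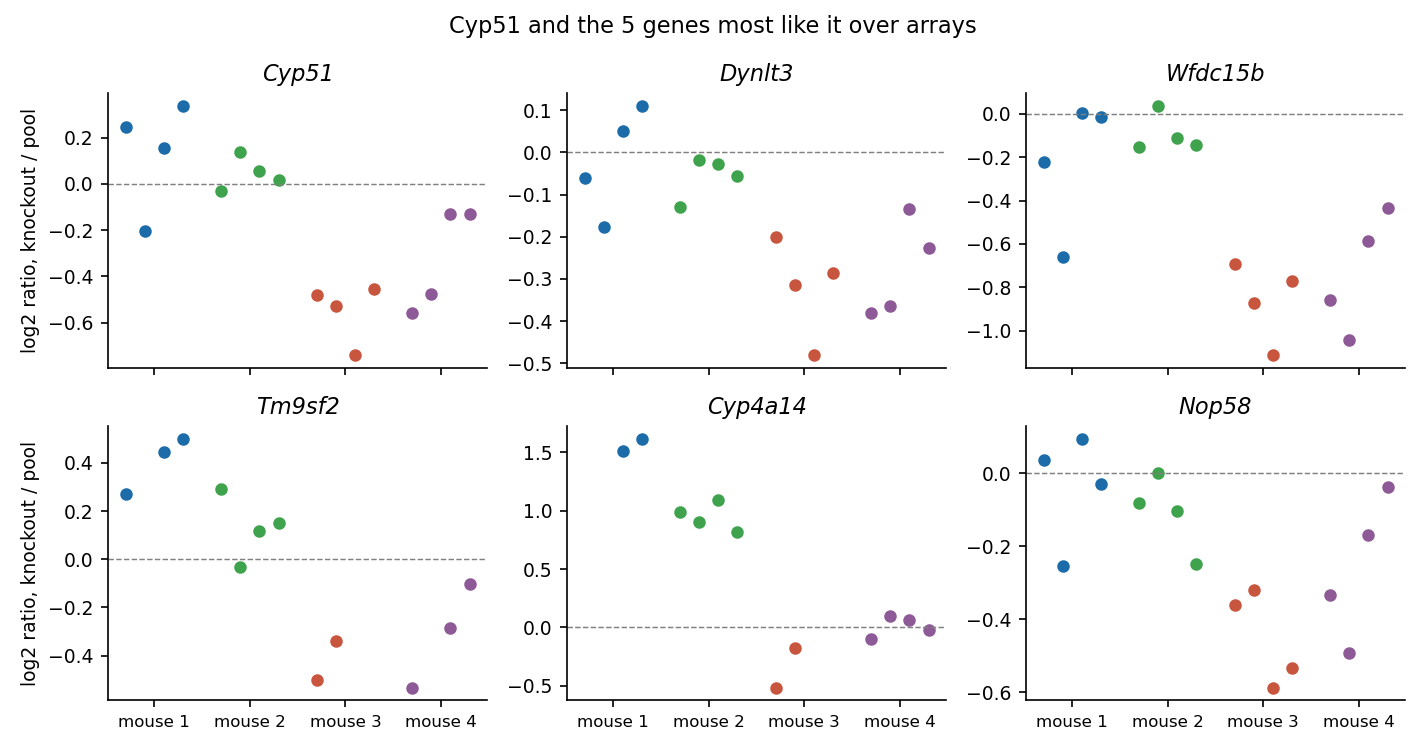
Log2 ratio of knockout over pool on each array (y axes, with a scale of their own in each panel) for Cyp51 and the 5 genes with the highest Pearson r to it, with arrays placed by mouse (x axis). Each panel has its lowest array in mouse 3 or mouse 4, and Dynlt3 and Wfdc15b follow Cyp51 within mice as well.

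Idi1 was most like Ncs1 (r = 0.85, 12 arrays), Skp2 (0.81, 13 arrays), Zfp60 (0.79, 12 arrays), Ncoa6 (0.78, 12 arrays) and the collagen gene Col3a1 (0.78, 12 arrays). Array 1 of mouse 2, the positive one for Idi1, was also the highest array of Ncs1 (0.40), Skp2 (1.65), Ncoa6 (0.93) and Col3a1 (0.13). Without it, an alternative chosen after the values were seen, r with Idi1 was 0.76 for Ncs1, 0.50 for Skp2, 0.83 for Zfp60, 0.33 for Ncoa6 and 0.56 for Col3a1. Hmgcs1 was most like Car5b (0.89, 13 arrays), Hnrnpd (0.85, 12 arrays), Tlk2 (0.82, 14 arrays), Hnrnpa1 (0.78, 14 arrays) and Smim7 (0.76, 15 arrays). The 3 sterol genes were not near the top of each other's lists. Idi1 and Cyp51 had an r of 0.46 (16 arrays), Idi1 and Hmgcs1 of 0.41 and Hmgcs1 and Cyp51 of 0.33 (15 arrays each), and with the mean of each mouse taken out these were -0.18, 0.38 and -0.01. Without array 1 of mouse 2, r between Idi1 and Cyp51 was 0.55.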

How the data were processed

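Per the labels, kidney cDNA carried Cy3 or Cy5 and arrays were read with GenePix equipment. Mean spot intensities were corrected for background and each array was set to a median ratio of 1, per the labels. The deposited table holds the channel ratios as log2, a base read from the values. The dye of each channel, the numerator and the filter behind blank cells are not given in the sources used here.

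Of 20205 probes, 11723 have 1 gene symbol, 806 several and 7676 none in the platform annotation, and 11590 of the first were matched by gene identifier to RefSeq names (GRCm38.p6). Each array was centred on its median and turned to knockout over pool. A mouse was the mean of its 2 orientation means, and a gene the mean of the probes naming it alone. Probes needed a value for each mouse in each orientation (10804 probes, 6191 genes).

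Tests used limma 3.58.1 in R 4.3.3, two-sided, with Benjamini-Hochberg adjustment over all genes and a threshold of 0.05: the ratio against 0 over 4 mice, the difference between orientations over 4 mice, and a moderated F test between mice over 16 arrays. The pool is 1 control sample and enters the test against 0 as a fixed reference with no error of its own. Adjusted p values against the pool therefore rest on variation among the knockout mice. How far wild-type animals differ from each other does not enter them. The fits were tested on simulated data. No array pair was identical. The genes, lists, tests and the direction of the ratios were chosen with earlier results of these data known.

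Named genes are the sterol genes, all tested genes of the 2 sterol route lists, the 4 of smallest p in each other list, markers past a threshold and the 5 most alike genes. Spink1, Aqp2, Hsd11b2, Slc4a1 and untested genes are named besides. Protein identity between Idi1 and Idi2 was planned and is not analysed here. Some items of the lists are not reported here.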

Additional observations from a re-analysis of the deposited data

How the results depend on the processing

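The mean ratios of Idi1 and Hmgcs1 kept their sign under every alternative that gave a value, Idi1 from -0.59 to -0.43 and Hmgcs1 from -0.27 to -0.16, and that of Cyp51 ran from -0.28 (without mouse 1) to -0.03 (without mouse 3). Hmgcs1 gave no value on arrays 1 and 2 or on probes complete over all arrays, because 1 array is blank. The adjusted p of Cyp51 between mice ran from 0.0112 to 0.302 with 1 mouse left out, and was 0.246 on arrays 1 and 2 and 0.0757 on arrays 3 and 4. Fewer samples enter those fits. Idi1 and Hmgcs1 did not pass between mice in any of them. Of 6191 genes, 13 passed against the pool and 161 between mice. With 1 mouse left out these were 1 to 6 and 41 to 138, among 6197 to 7285 genes. Against the pool the count was 4 of 4305 genes on arrays 1 and 2 and 8 of 3576 on arrays 3 and 4. It was 1 of 6672 with knockout RNA in channel 2 and 40 of 2681 for probes complete over all arrays. With the mouse as a random block it was 467 of 6191, a fit in which arrays count nearly as animals (correlation within mice 0.014). Between mice the count was 31 on arrays 1 and 2 and 22 on arrays 3 and 4. The dye contrast, with none by limma, had 1 after scaling of arrays and 104 for complete probes, a set with fewer genes. Of the named pathway genes, Cyp7b1 passed for complete probes (-0.32, adjusted p = 0.0392), and Cyp7b1, Lbr, Apoe, Fnta, Bdh1 and Acaa1a passed with the random block. Without intensities, signal over background could not be assessed.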
